A study of Nicotiana tabacum with 6 samples.

Results

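The genes described here are the nuclear genes for the proteins of the ribosomes inside chloroplasts and mitochondria. They were found by their protein descriptions. A locus was taken when its best protein match was named a 30S, 50S, 28S, 39S or 54S ribosomal protein. These subunit names are used for the ribosomes of bacteria or of organelles. This rule found 149 of the 39825 loci in the table. Of these, 100 were described as chloroplastic, 34 as mitochondrial and 15 named neither organelle. A locus was tested where its FPKM, averaged over the 6 libraries, reached 0.5 or more, which held for 142 members (96 chloroplast, 32 mitochondrial and 14 other loci). The remaining 7 members were below this level. FPKM is the number of sequenced fragments per length of gene, scaled to the mapped fragments of the library, so levels of different genes are comparable per length.

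RNA-seq was performed on tobacco explants, pieces of plant tissue in culture, whose medium held either a low (0.1 mg/L) or a high (0.5 mg/L) concentration of the synthetic auxin naphthaleneacetic acid (NAA). Culture lasted 2 weeks, and each NAA treatment had 3 libraries. In the study's methods the regeneration media of both treatments also held the cytokinin 6-benzyladenine and the antibiotics kanamycin and Timentin. Whether the medium of the 2-week explants held all of these is not stated. The 2-week explants were the batch used for chromatin accessibility. The samples were labelled Nicotiana tabacum, while the methods name N. benthamiana and the locus names are those of the N. benthamiana genome Niben261. How the 3 replicates were separated is not described, so p-values measure the spread between these libraries, which may be technical.

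Chloroplasts and mitochondria descend from bacteria and keep their own ribosomes, which translate the few proteins that the organelle genomes still encode, such as core subunits of photosystems and of the respiratory chain. Most proteins of these ribosomes are encoded in the nucleus, made on cytosolic ribosomes and imported into the organelle, where they join the organelle's ribosomal RNA. Chloroplast ribosomes also hold a few proteins named plastid-specific, which the ribosomes of many bacteria lack.

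The chloroplast ribosomal protein genes had lower FPKM under 0.5 mg/L NAA than under 0.1 mg/L NAA, a direction that turned for their median when libraries were scaled to the cytosolic ribosomal protein genes. Of the 96 chloroplast loci tested, 71 were down-regulated (adjusted p under 0.05 from limma with Benjamini-Hochberg adjustment), 1 was up-regulated and 24 did not pass the test. Over all 32443 loci tested, 20.2% were down-regulated and 21.7% were up-regulated at the same threshold. The median log2 fold change (0.5 against 0.1 mg/L NAA, log2FC) of the chloroplast loci was -0.58, against 0.02 over all loci. A log2FC is a difference of log2(FPKM + 1) values, so the true change of genes with few FPKM is larger than it shows. The values of the subunits were close to each other: 48 of 65 large subunit loci fell, with a median log2FC of -0.58, and 23 of 31 small subunit loci fell, with a median log2FC of -0.59. In 73 chloroplast loci all 3 libraries under 0.5 mg/L NAA were below all 3 under 0.1 mg/L NAA, an arrangement found in 25.9% of all loci tested.

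The reduction was broad and moderate in size. At the study's stricter threshold, which adds a |log2FC| of at least 1, only 6 chloroplast loci were down-regulated and none was up-regulated, against 2.62% and 3.24% of all loci tested. The range of log2FC over the chloroplast loci was -1.34 to 0.79.

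The mitochondrial and the other loci had smaller median changes. Of 32 mitochondrial loci, 13 fell (40.6%) and 0 rose, against 20.2% and 21.7% of all loci. Their median log2FC was -0.21. At an unadjusted limma p under 0.05, 16 mitochondrial loci were lower and 3 higher, against 7878 lower and 8604 higher of all 32443 loci. After rescaling each library to the same total, 11 mitochondrial loci fell and 3 rose and their median was -0.0301. Of all loci, 12.2% fell and 34.3% rose after this rescaling, with a median of 0.19. On the same rescaling the median of the chloroplast loci was -0.39, with 55 loci lower and 2 higher. Of the 14 loci whose description names neither chloroplast nor mitochondrion, 6 fell (42.9%) and 0 rose, with a median log2FC of -0.23. At an unadjusted limma p under 0.05, 7 of them were lower and 1 higher. The difference between the chloroplast and the mitochondrial loci was not tested.

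**Figure D1:**
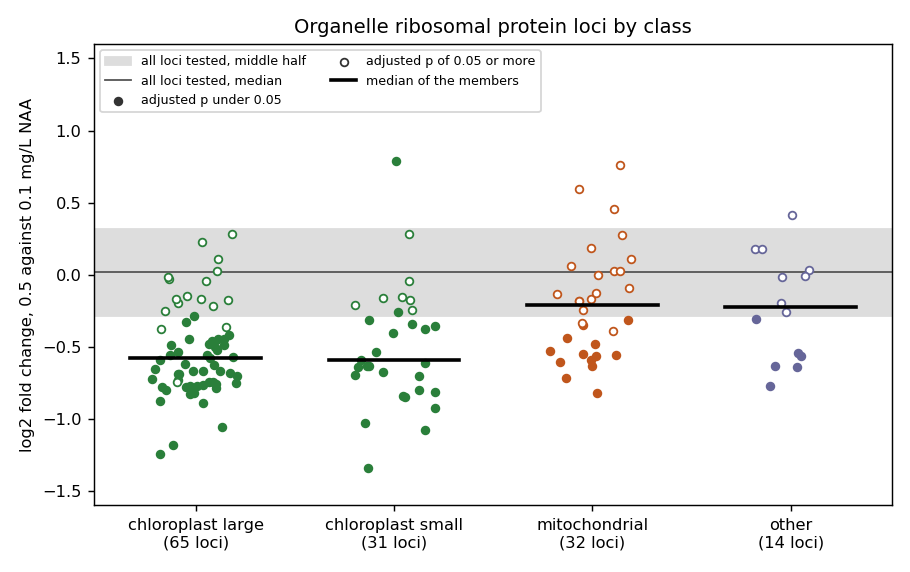
Log2 fold change (0.5 against 0.1 mg/L NAA, log2(FPKM + 1) scale) of each tested member, by class. Each point is 1 locus, filled where the adjusted p was under 0.05, thick bars are class medians, and the grey band is the interquartile range of all loci tested (-0.29 to 0.32) with their median of 0.02. The medians of both chloroplast subunits (-0.58 and -0.59) lie below the band, and those of the mitochondrial (-0.21) and other (-0.23) loci lie inside it.

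The summed level of the chloroplast members was 7509.18, 7486.03 and 7288.06 FPKM in the libraries under 0.1 mg/L NAA and 5272.85, 4379.41 and 4790.21 FPKM under 0.5 mg/L NAA. The treatments did not overlap, and the mean sum under 0.5 mg/L NAA was 64.8% of that under 0.1 mg/L NAA. For the mitochondrial members the sums were 1184.95, 1145.61 and 1181.76 FPKM against 922.64, 922.75 and 871.35 FPKM, or 77.3%. The other members summed to 425.99, 413.97 and 398.51 FPKM against 341.15, 322.69 and 307.50 FPKM, or 78.4%. The total of the whole table was itself lower under 0.5 mg/L NAA, at 87.4% of that under 0.1 mg/L NAA. With 3 libraries per treatment an exact two-sided permutation test cannot go below p = 0.1, so the sums are given without a test.

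**Figure D2:**
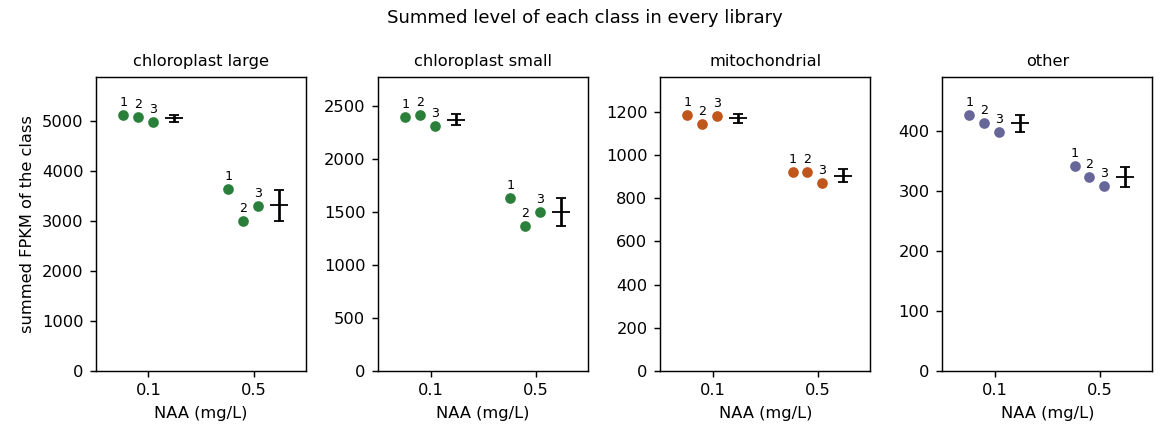
Summed FPKM of each class of members in every library, with the NAA concentration on the x axis and the replicate number beside each point. The cross and bar show the mean and the SD of 3 libraries, and the y axes start at 0. In each panel the 3 libraries under 0.5 mg/L NAA lie below the 3 under 0.1 mg/L NAA, and replicate 2 under 0.5 mg/L NAA is the lowest in both chloroplast panels.

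Among the 3 libraries under 0.5 mg/L NAA, replicate 2 had the lowest value in 65 of the 96 chloroplast loci and replicate 1 the highest in 58. The mitochondrial loci shared this order only in part: replicate 1 was the highest in 15 of 32, but replicate 3 was the lowest in 17 and replicate 2 in 8. The summed level of the Rubisco small subunit genes, whose product is a photosynthetic enzyme subunit of the chloroplast, was also lowest in replicate 2 under 0.5 mg/L NAA, at 1245.48 FPKM against 2118.70 and 1436.92 FPKM in replicates 1 and 3. That of the chlorophyll a-b binding protein genes, also photosynthetic, was instead lowest in replicate 3, at 1479.18 FPKM against 1731.71 and 1614.02 FPKM in replicates 1 and 2. Without replicate 2 under 0.5 mg/L NAA, 71 chloroplast loci were down-regulated and their median log2FC was -0.49.

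The number of reads is unknown. From the steps between low FPKM values, replicate 3 under 0.1 mg/L NAA had a relative depth of 0.740, against 0.994 to 1.04 in the other libraries. The labelled tissue was checked with marker lists. The chlorophyll a-b binding protein genes, markers of green photosynthetic cells, fell in 36 of 38 tested loci, from summed levels of 4878 to 5533 FPKM to levels of 1479 to 1732 FPKM. The Rubisco small subunit genes fell in 3 of 8 loci, with sums of 2754 to 2909 FPKM against 1245 to 2119 FPKM. Histone and mitotic cyclin genes, markers of dividing cells, fell in 21 of 30 tested loci, with sums of 3317 to 3697 FPKM against 1678 to 2221 FPKM. Cellulose synthase and laccase genes of xylem walls fell in 10 and rose in 1 of 19, with sums of 167 to 179 FPKM against 74.0 to 110 FPKM. None of the 4 lists was at 0 in any library. The sums of these lists moved in the same direction as that of the chloroplast ribosomal protein genes. Single loci went both ways: in the order given, 1 of 38, 3 of 8, 8 of 30 and 4 of 19 had a log2FC above 0. The part of these markers in the result was not tested. In explants sampled whole, fewer cells of a type and less RNA per cell cannot be told apart.

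The cytosolic ribosome, which makes the imported proteins, was lower too. Of 397 tested loci described as 60S or 40S ribosomal proteins, 347 fell and 4 rose, with a median log2FC of -0.67 and a mean sum of 60.1% of that under 0.1 mg/L NAA. Expressed as a percentage of this cytosolic sum in the same library, the chloroplast members stood at 7.68%, 7.58% and 7.80% under 0.1 mg/L NAA and at 8.61%, 7.37% and 8.95% under 0.5 mg/L NAA. On this measure the treatments overlapped. The mitochondrial members stood at 1.21%, 1.16% and 1.26% under 0.1 mg/L NAA and at 1.51%, 1.55% and 1.63% under 0.5 mg/L NAA, with all 3 libraries under 0.5 mg/L NAA higher. The fit was repeated with each library scaled to the same cytosolic sum, an alternative chosen after seeing the data. Of all loci tested, 2.66% then fell and 73% rose, with a median log2FC of 0.65. Of the 96 chloroplast loci, 6 fell and 32 rose, with a median of 0.11. The 6 were the 6 loci past both thresholds, which code for L29, L28, S31 and S13. In that fit 0 of 32 mitochondrial loci fell and 19 rose, with a median of 0.48. The falls given here are falls in FPKM, relative to the mapped fragments of a library.

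The loci with the largest falls coded for L29, L28, S31 and S13. L29, a large subunit protein beside the exit of the tunnel through which the new peptide leaves, had 4 loci and all 4 fell. The highest, Niben261Chr13g1108024 on chromosome 13, had 266.87, 258.09 and 250.69 FPKM under 0.1 mg/L NAA and 125.42, 108.22 and 94.99 FPKM under 0.5 mg/L NAA. The treatments were far apart, with means of 259 ± 8.10 and 110 ± 15.3 FPKM (SD, n = 3 libraries) and a log2FC of -1.24 (SE 0.10, limma adjusted p = 0.000314). The L29 locus Niben261Chr10g1002010 on chromosome 10 went from 86.80, 83.29 and 79.07 FPKM to 44.89, 35.97 and 37.82 FPKM. Its treatments did not overlap either, and its log2FC was -1.06. Over the 4 loci together the level of L29 under 0.5 mg/L NAA was 48.7% of that under 0.1 mg/L NAA.

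L28, a bacterial-type large subunit protein, had a pair of loci that both fell. Niben261Chr09g0276007 on chromosome 9 had 87.06, 92.84 and 94.18 FPKM under 0.1 mg/L NAA and 52.43, 30.06 and 39.56 FPKM under 0.5 mg/L NAA, a log2FC of -1.18 (SE 0.18). Its libraries under 0.5 mg/L NAA were spread more widely than those under 0.1 mg/L NAA but stayed below them. S13, a protein of the small subunit head that touches the tRNA carrying the growing peptide, fell from 177.43, 175.60 and 167.30 FPKM to 95.50, 76.23 and 83.24 FPKM at Niben261Chr19g0933005 on chromosome 19. That was a log2FC of -1.03 (SE 0.09), with the treatments apart by more than the spread in either. The other S13 locus had a log2FC of -0.68, and the sum over both was 53.7% of that under 0.1 mg/L NAA.

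Among the plastid-specific proteins, S31 (also named PSRP4, a small basic protein of the small subunit) was the most reduced chloroplast ribosomal protein in summed level, at 47.9% of that under 0.1 mg/L NAA. The S31 locus Niben261Chr08g0757003 on chromosome 8 had the highest mean level of all the chloroplast members, with 341.37, 358.59 and 329.30 FPKM under 0.1 mg/L NAA. Under 0.5 mg/L NAA it had 185.06, 150.98 and 152.91 FPKM, a log2FC of -1.07 (SE 0.09). The S31 locus Niben261Chr01g0970022 on chromosome 1 had the largest fall of all members, from 74.89, 80.19 and 76.66 FPKM to 43.80, 24.71 and 24.58 FPKM (log2FC -1.34, SE 0.21, limma adjusted p = 0.0023). At this locus, replicate 1 under 0.5 mg/L NAA was higher than the other two, and no library reached the level under 0.1 mg/L NAA. The third S31 locus, Niben261Chr03g0772011 on chromosome 3, fell with a log2FC of -0.80.

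Plastid-specific protein 5 of the large subunit fell at both tested loci. Niben261Chr13g0170009 on chromosome 13 had 189.79, 186.59 and 171.09 FPKM against 135.24, 99.57 and 122.17 FPKM, a log2FC of -0.62. Its treatments did not overlap, but the call was lost with quantile scaling (log2FC -0.37, limma adjusted p = 0.0529). Niben261Chr16g0006006 on chromosome 16 had a log2FC of -0.82, and the third locus, Niben261Chr04g0279010, was between 0 and 0.23 FPKM in all libraries and was not tested. Protein 6 of the large subunit had a single locus, Niben261Chr19g0496004 on chromosome 19, with 53.08, 65.49 and 28.84 FPKM under 0.1 mg/L NAA and 29.35, 28.68 and 24.24 FPKM under 0.5 mg/L NAA. It did not pass the test (log2FC -0.75, SE 0.27, limma adjusted p = 0.0575). Its replicate 3 under 0.1 mg/L NAA, the shallowest library, was at the level of the other treatment, and without that library the log2FC was -1.08 with a limma adjusted p of 0.0041.

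The plastid-specific small subunit proteins 2 and 3 moved less than S31. Protein 3, which is related to a protein encoded in algal plastid genomes, had 4 tested loci and 2 of them fell. Niben261Chr17g0697008 on chromosome 17 had 22.59, 24.95 and 20.80 FPKM against 18.76, 16.02 and 17.23 FPKM (log2FC -0.37), and Niben261Chr19g1427022 on chromosome 19 had 9.22, 7.45 and 8.61 FPKM against 6.53, 4.38 and 5.02 FPKM (log2FC -0.59). The treatments did not overlap in either, but the call of the first was lost without replicate 1 or 2 under 0.1 mg/L NAA (limma adjusted p = 0.0587 and 0.0693), and that of the second without replicate 1 or 3 under 0.1 mg/L NAA (limma adjusted p = 0.0639 and 0.0530). Both calls were also lost after rescaling to equal totals, at limma adjusted p = 0.143 and 0.0506. Niben261Chr04g1030002 had a log2FC of -0.18 with overlapping treatments.

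Protein 2 of the small subunit is an RNA-binding protein, and both of its loci were also annotated with a polyadenylate-binding protein orthologue. Niben261Chr03g0548003 on chromosome 3 had 75.88, 78.22 and 78.35 FPKM under 0.1 mg/L NAA and 79.62, 61.44 and 86.11 FPKM under 0.5 mg/L NAA, a log2FC of -0.05 (SE 0.12). The libraries under 0.5 mg/L NAA lay on both sides of those under 0.1 mg/L NAA. Niben261Chr18g0967003 on chromosome 18 had 46.53, 43.54 and 42.31 FPKM against 34.18, 33.92 and 43.79 FPKM, a log2FC of -0.25 (SE 0.11). Its replicate 3 under 0.5 mg/L NAA lay within the range of the other treatment, and without it the locus passed the test (log2FC -0.36, limma adjusted p = 0.011).

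**Figure D3:**
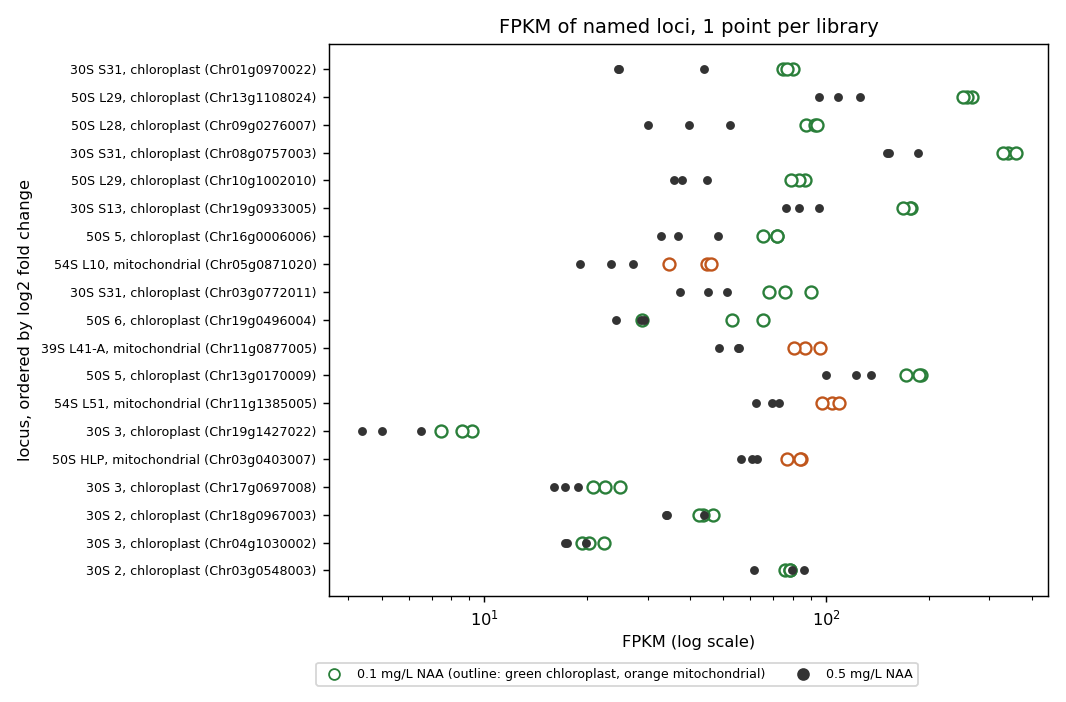
FPKM (log scale) of the plastid-specific loci, the loci past both thresholds, and the most reduced and highest mitochondrial loci, with 1 point per library and the loci ordered by log2 fold change. Open circles are libraries under 0.1 mg/L NAA and filled circles libraries under 0.5 mg/L NAA. The treatments are apart in S31, L29, L28 and S13 and overlap at the 30S 2 loci, at 30S 3 locus Niben261Chr04g1030002 and at 50S 6.

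The 96 chloroplast loci code for 40 proteins. The summed level of a protein was lower under 0.5 mg/L NAA for 38 of the 40, with a median of 65.7% of the level under 0.1 mg/L NAA. All tested loci fell for 22 proteins. Of the 33 proteins with more than 1 tested locus, 18 had a fall at each locus, 13 had a fall at some and 2 at none. N. benthamiana is an allotetraploid, in which copies of a gene can be near-identical. How reads shared between copies were counted is not described, so the split of a protein's level between its loci is uncertain, while its summed level is less so.

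Proteins with known places in the ribosome had falls of different size in summed level, and the differences between proteins were not tested. L27, whose end reaches the peptidyl transferase centre, had 4 loci that all fell, to 67.0% in sum. L17, next to the exit tunnel, had 4 loci that all fell, to 57.1%. L34 and L35, small proteins of the large subunit, were at 58.1% and 57.7%, with all 3 of their loci falling. S5 and S9, which contact the mRNA and the tRNA in the small subunit, fell at each of their loci but by less, to 77.0% and 81.1%. S1, the mRNA-binding protein of the small subunit, fell at 1 of 2 loci, to 84.1%.

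Some chloroplast ribosomal proteins did not pass the test at any locus. L1 forms the mobile stalk that guides the spent tRNA out of the ribosome, and its 3 loci had log2FC values of -0.22, -0.20 and -0.17. The highest of them, Niben261Chr05g0908008, had 106.36, 103.76 and 112.55 FPKM against 96.59, 80.80 and 105.58 FPKM, with overlapping treatments. The L12 stalk, which recruits translation factors, fell at its main locus Niben261Chr17g1061016 (35.30, 39.48 and 26.93 FPKM against 22, 17.97 and 18.66 FPKM, log2FC -0.75) and not at a locus of about 3 FPKM. L10, which anchors that stalk, fell with a log2FC of -0.45. These genes and those of the preceding paragraph were chosen after their values were seen.

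L22 and L16 were the proteins with a higher summed level under 0.5 mg/L NAA, at 118% and 134%, and neither passed the test. In tobacco both proteins are encoded in the chloroplast genome, and the loci here lie on nuclear chromosomes 13 and 12. Which other members have a chloroplast-encoded counterpart was not examined, so this trait cannot be called particular to L22 and L16. The L22 locus Niben261Chr13g0068001 had 11.46, 14.61 and 15.34 FPKM against 14.07, 17 and 17.91 FPKM. The L16 locus Niben261Chr12g1030016 was low, with 1.82, 1.67 and 1.12 FPKM against 1.94, 2.17 and 2.08 FPKM.

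The only up-regulated chloroplast member was an S20 locus. S20 binds the ribosomal RNA of the small subunit early in its assembly. Niben261Chr08g1074024 on chromosome 8 had 0.41, 0.84 and 0.56 FPKM under 0.1 mg/L NAA and 1.61, 2.08 and 1.6 FPKM under 0.5 mg/L NAA (log2FC 0.79, SE 0.16, limma adjusted p = 0.0078). It carried a small fraction of the S20 transcripts: the main loci, Niben261Chr12g0581002 and Niben261Chr01g0296010, had mean levels of 61.1 and 68.5 FPKM under 0.1 mg/L NAA and fell with log2FC values of -0.92 and -0.70. The sum of S20 over its 4 loci went to 58.8%.

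**Figure D4:**
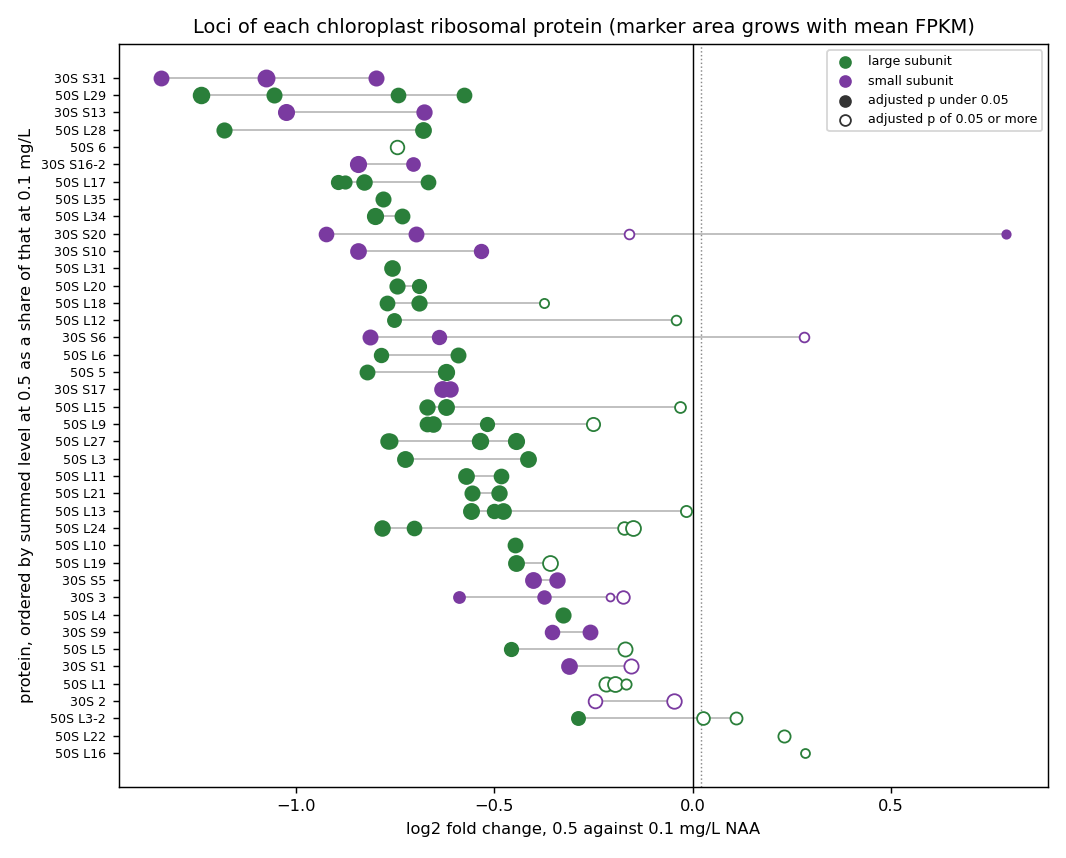
Log2 fold change (0.5 against 0.1 mg/L NAA) of every tested chloroplast locus, with 1 line per protein ordered by its summed level under 0.5 mg/L NAA as a share of that under 0.1 mg/L NAA. Filled points had an adjusted p under 0.05, and the dotted line is the median of all loci tested (0.02). S31 (47.9%) and L29 (48.7%) stand at the top and L22 (118%) and L16 (134%) at the bottom, and the S20 line runs from -0.92 to the weakly expressed locus at 0.79.

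In the mitochondrial class the 13 loci that fell were among the 28 of the large subunit, whose median log2FC was -0.33. None of the 4 small subunit loci, which code for S9 and S29, passed the test (1 was higher at an unadjusted limma p under 0.05), and their log2FC values ran from 0.03 to 0.59. The summed level of the mitochondrial small subunit loci was 51.78, 50.53 and 46.91 FPKM under 0.1 mg/L NAA and 49.47, 55.67 and 58.61 FPKM under 0.5 mg/L NAA, with overlapping treatments. Whether the subunits differed was not tested, and only 2 small subunit proteins were represented.

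The largest mitochondrial fall was in a locus described as 54S L10 (a yeast name, annotated here as an orthologue of bacterial L15, a protein of the large subunit core). Niben261Chr05g0871020 on chromosome 5 had 44.73, 45.87 and 34.67 FPKM under 0.1 mg/L NAA and 27.16, 23.53 and 19.08 FPKM under 0.5 mg/L NAA (log2FC -0.82, SE 0.15, limma adjusted p = 0.0047). A second L10 locus with a neighbouring identifier, Niben261Chr05g0871002, had 23.92, 25.11 and 23.99 FPKM against 26.02, 21.22 and 25.83 FPKM and a log2FC of -0.005. Both loci match the same protein, so the division of reads between them is uncertain. Together they were at 72.0% of the level under 0.1 mg/L NAA.

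Of the 39S L41-A loci, Niben261Chr11g0877005 on chromosome 11 fell from 86.48, 80.75 and 96.00 FPKM to 55.63, 55.08 and 48.51 FPKM (log2FC -0.71, SE 0.09). The other, Niben261Chr19g0600005 on chromosome 19, had 67.38, 74.22 and 70.15 FPKM against 57.03, 65.87 and 56.04 FPKM. It did not pass the test (log2FC -0.24, limma adjusted p = 0.0514). L41 is a large subunit protein known from mammalian mitochondria. The locus with the highest level in this class, 54S L51 at Niben261Chr11g1385005 on chromosome 11, had 103.91, 96.97 and 108.65 FPKM against 72.71, 69.60 and 62.35 FPKM, a log2FC of -0.59 (SE 0.08). The second highest, 50S HLP at Niben261Chr03g0403007 on chromosome 3, annotated as the L14 type, had 84.16, 76.74 and 83.84 FPKM against 62.68, 60.81 and 56.40 FPKM, a log2FC of -0.44 (SE 0.07). In these loci the treatments did not overlap.

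Of the 15 mitochondrial proteins, 12 had a lower summed level under 0.5 mg/L NAA, and the median over all 15 was 76.5% of that under 0.1 mg/L NAA. L41, L47, L51 and L24 fell at each of their tested loci, to 63.8%, 66.4%, 67.1% and 68.2% in sum. Here L41 is the 1 locus described by that name, and L41-A, counted apart, fell at 1 of its 2 loci, to 71.2%. The L24 loci (a yeast name, annotated here as the L28 type) had log2FC values of -0.55 and -0.53, smaller falls than those of the chloroplast L28 loci, -1.18 and -0.68. The difference was not tested. L21, L19 and S9 did not pass the test at any of their loci, with sums of 94.8%, 116% and 104%. S29, whose animal counterpart is the death-associated protein DAP3, had 5.06, 6.51 and 3.98 FPKM against 6.11, 9.83 and 9.13 FPKM at Niben261Chr04g1663005 on chromosome 4. Its log2FC of 0.59 did not pass the test (SE 0.21, limma adjusted p = 0.051), and replicate 1 under 0.5 mg/L NAA overlapped with the other treatment.

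Among the members whose description names neither chloroplast nor mitochondrion, L27, L17 and L4 fell at each of their 5 loci. The L27 locus Niben261Chr14g1123030 on chromosome 14 had 53.92, 47.36 and 48.92 FPKM against 34.87, 26.99 and 25.42 FPKM (log2FC -0.77, SE 0.12). The L17 locus Niben261Chr03g0751016 on chromosome 3 had 66.88, 60.77 and 64.28 FPKM against 44.36, 43.39 and 35.06 FPKM (log2FC -0.64, SE 0.10). In both the treatments were apart by more than the spread within them. The pair of S1 loci had log2FC values of -0.02 and -0.01, and an L1 locus had a log2FC of 0.18 that did not pass the test. The L12 loci of this class, described as of the cyanelle, a kind of plastid, had log2FC values of -0.31 and -0.26. Only the first of them passed the test.

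The gene ontology terms of the table gave a second view of where these proteins go. Of the 100 chloroplast members, 76 carried a chloroplast or plastid term, and 58 of the 74 tested fell. All 8 members with both a chloroplast and a mitochondrion term fell, with a median log2FC of -0.66. The 3 loci of L3-2, a second form of the early assembly protein L3, carried a mitochondrion term and no chloroplast term, although their description says chloroplastic. L3-2 had log2FC values of -0.29, 0.03 and 0.11, and 1 of the 3 loci fell, while both loci of L3 fell, to 67.4% in sum. Both S16-2 loci, described as proteins of both organelles and counted with the chloroplast members, fell, to 56.4%. In the mitochondrial class 12 members carried a mitochondrion term, of which 3 fell, and 22 carried no term. A bacterial-type orthologue was annotated for 86 chloroplast, 18 mitochondrial and 10 other members. The chloroplast members lay on all 19 chromosomes, the mitochondrial members on 16 and the other members on 11.

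The members differ in level, and in this table the more highly expressed genes were down-regulated more often. Of all loci with a mean of 0.5 to 10 FPKM 10.1% fell, of those with 10 to 50 FPKM 21.3%, of those with 50 to 100 FPKM 42.1%, and of those with 100 FPKM or more 60.5%. In the same bands, the chloroplast loci that fell were 1 of 11, 21 of 29, 30 of 35 and 19 of 21. The shares of 72.4%, 85.7% and 90.5% from 10 FPKM upward were thus above those of all loci of like level, and the share of 9.09% below 10 FPKM was not. The mitochondrial loci that fell were 0 of 8, 6 of 14 and 7 of 10 in the lower 3 bands, and none had 100 FPKM or more. The median log2FC of all loci with 100 FPKM or more was -0.41, and that of the chloroplast loci in this band was -0.57.

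**Figure D5:**
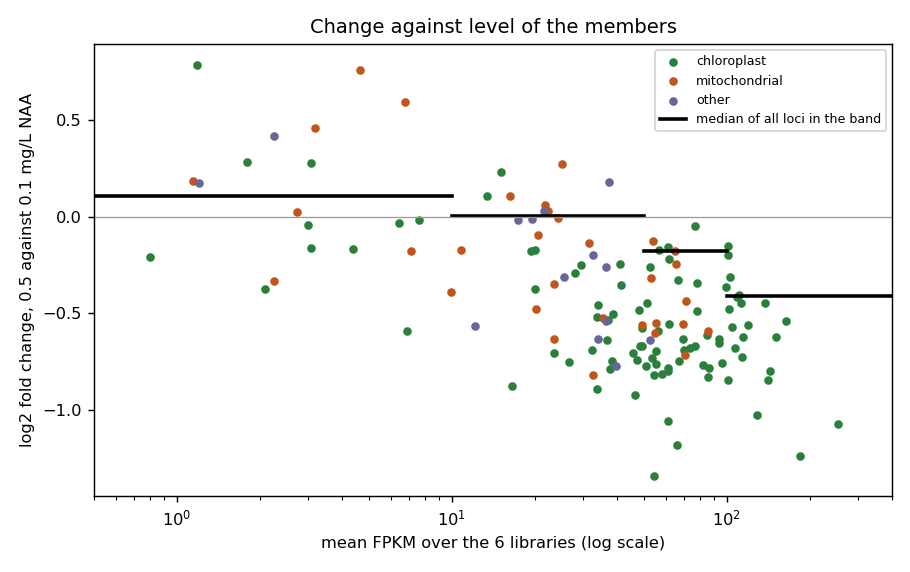
Log2 fold change (0.5 against 0.1 mg/L NAA) of each tested member against its mean FPKM over the 6 libraries (log scale). Points are loci, coloured by class, and black bars are the medians of all loci in the bands 0.5 to 10, 10 to 50, 50 to 100 and 100 FPKM or more (0.11, 0.01, -0.18 and -0.41). Most chloroplast points above 10 FPKM lie below the bars, with a median of -0.68 at 50 to 100 FPKM, and the members below 10 FPKM lie on both sides.

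At the edge of the filter, the lowest tested member was a 30S 3 locus, Niben261Chr16g0091005, with 1.47, 1.48 and 0 FPKM under 0.1 mg/L NAA and 0.61, 1.05 and 0.20 FPKM under 0.5 mg/L NAA. The highest member left out was an S17 locus, Niben261Chr13g0881005, with 0.32, 0.65 and 0.44 FPKM against 0.63, 0.32 and 0.62 FPKM. The 7 members below the filter were 4 chloroplast loci (S17 at a pair of neighbouring identifiers, S12-B and protein 5), 2 mitochondrial loci (L10 and S29) and 1 other locus (L33).

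Other genes of organelle translation were counted in lists, and their difference from the ribosomal proteins was not tested. Of 14 chloroplast translation factor loci, 1 fell and 2 rose, with a median log2FC of -0.05, and at an unadjusted limma p under 0.05 3 were lower and 2 higher. The shares, 7.14% down and 14.3% up, were below the 20.2% and 21.7% of all loci. Initiation factor IF-2 at Niben261Chr12g0669002, which brings the initiator tRNA to the ribosome, rose from 8.92, 8.52 and 8.46 FPKM to 17.57, 10.76 and 22.04 FPKM (log2FC 0.83). Initiation factor IF3-4 at Niben261Chr02g0331003, which keeps the subunits apart before initiation, fell from 68.31, 72.24 and 64.07 FPKM to 52.76, 46.31 and 59.05 FPKM (log2FC -0.37). In both genes the libraries of the treatments did not overlap, and replicate 2 under 0.5 mg/L NAA was the lowest of its treatment. Of 13 mitochondrial translation factor loci, 1 rose (7.69%, against 21.7% of all loci) and none fell, also at an unadjusted limma p under 0.05. This was elongation factor Tu at Niben261Chr09g0362009, which delivers aminoacyl-tRNA, with a log2FC of 0.24.

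The aminoacyl-tRNA synthetases, which charge tRNAs with amino acids, rose more often than they fell in both organelle lists. In the chloroplast list 7 of 26 tested loci rose and 1 fell, with a median log2FC of 0.08. In the mitochondrial list 5 of 15 rose and none fell, with a median log2FC of 0.16, and none was lower at an unadjusted limma p under 0.05. The shares that rose, 26.9% and 33.3%, stand beside 21.7% of all loci, and those that fell, 3.85% and 0%, beside 20.2%. The differences from all loci were not tested. A valine--tRNA ligase of both organelles, Niben261Chr13g1212003, had the largest rise, from 1.22, 0.74 and 1.25 FPKM to 3.18, 3.48 and 2.60 FPKM (log2FC 0.99).

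Genes for assembling the chloroplast ribosome and for transcribing organelle genomes gave smaller lists. Of 4 chloroplast ribosome assembly loci, 2 fell and none rose, also at an unadjusted limma p under 0.05. The ribosome-binding factor A locus Niben261Chr09g1347007, which in bacteria helps to mature the small subunit, went from 16.14, 17.48 and 20.43 FPKM to 10.35, 10.56 and 10.16 FPKM (log2FC -0.74). Of 27 tested loci for organelle transcription, 6 rose and 1 fell, also at an unadjusted limma p under 0.05. The share that rose, 22.2%, was close to the 21.7% of all loci that were up-regulated. RNA polymerase 3B at Niben261Chr03g1307008, a nuclear-encoded phage-type polymerase of the chloroplast, rose from 4.58, 2.47 and 3.30 FPKM to 8.33, 9.21 and 5.91 FPKM (log2FC 0.99). The locus that fell codes for pTAC16, a protein of the plastid transcriptionally active chromosome. Niben261Chr15g1439011 had 40.18, 40.66 and 41.42 FPKM against 26.50, 21.28 and 26.25 FPKM (log2FC -0.71), with no overlap between treatments.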

How the data were processed

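The 6 RNA-seq libraries were analysed from 1 table of FPKM values deposited by the authors, with protein, gene ontology and orthologue annotation of each locus. The authors' read processing for the 2-week libraries (aligner, counter and handling of shared reads) is not given in the sources used here. The table holds no counts, so no count model was fitted. For each locus averaging 0.5 FPKM or more, log2(FPKM + 1) values were tested with limma 3.58.1 in R 4.3.3, with a mean-variance trend and Benjamini-Hochberg adjustment over the 32443 loci tested. No scaling between libraries was added. The scripts were tested on simulated data, and plots were made in Python 3.11.15 with matplotlib 3.10.9.

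Named genes were, per class, the 2 largest rises and falls, loci past both thresholds, the 2 highest loci, the plastid-specific proteins and the loci at the edge of the filter; in the lists of organelle translation and transcription, examples are the largest changes that passed. Other named genes were chosen after their values were seen. The members, gene lists and rules were chosen with earlier results of these data known. Words for mitochondrial ribosome assembly proteins matched 0 loci. Same-numbered libraries of the treatments did not deviate together, so no replicate block was used. Alternatives were another pseudocount (0.1), no filter, a minimum of 1 FPKM, rescaling to equal totals, median-of-ratios and quantile scaling, a replicate block, no variance trend, a fold threshold, and leaving out each library. Scaling to the cytosolic ribosomal protein sum was added after seeing the data.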

Additional observations from a re-analysis of the deposited data

How the results depend on the processing

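Of the 96 chloroplast loci, between 55 and 72 were down-regulated, against 71, in the alternatives set with the design that kept the threshold on adjusted p. The lowest of these counts came from rescaling each library to the same total, which raised the median log2FC of all loci to 0.19. Of all loci, 12.2% were then down and 34.3% up. With that rescaling 2 chloroplast, 3 mitochondrial and 1 other loci rose, 11 mitochondrial and 4 other loci fell, the medians were -0.39 for chloroplast and -0.0301 for mitochondrial loci, and relative to the median of all loci these were -0.58 and -0.22. With the fold threshold added, 6 chloroplast and 0 mitochondrial and 0 other loci fell, and 0 chloroplast loci rose. Quantile scaling gave 60 chloroplast loci down, and 1 other locus up against 6 down. A minimum of 1 FPKM gave 1 mitochondrial locus up. Leaving out 1 library at a time gave 59 to 72 chloroplast loci down (medians -0.66 to -0.49), 11 to 14 mitochondrial loci down and 0 to 2 up, and 4 to 7 other loci down; the mitochondrial median ranged from -0.29 (without 0.5 mg/L NAA replicate 2) to -0.20.

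With a replicate block, 69 chloroplast and 14 mitochondrial loci were down and 1 mitochondrial locus up. The correlations of same-numbered libraries' deviations were 0.02, 0.01 and 0.01, each the highest for its library, so the libraries share little more than a number. The 50S 6 locus passed with the block (limma adjusted p = 0.023) and without replicate 3 under 0.1 mg/L NAA.

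Scaling each library to its cytosolic ribosomal protein sum, chosen after seeing the data, raised the median log2FC of all loci to 0.65. Of all loci tested, 2.66% were then down and 73% up. This scaling gave 6 chloroplast loci down and 32 up (median 0.11), 0 mitochondrial loci down and 19 up (median 0.48), and 0 other loci down and 7 up. Relative to the median of all loci these medians were -0.54 and -0.17. It turned the sign of named loci at 39S L41-A Niben261Chr11g0877005 (0.0126), L17 Niben261Chr03g0751016 (0.0847), 54S L51 (0.14), HLP (0.29), 30S 2 (0.68 for Niben261Chr03g0548003, 0.47 for Niben261Chr18g0967003), protein 5 Niben261Chr13g0170009 (0.11) and 30S 3 (0.52 for Niben261Chr04g1030002, 0.0700 for Niben261Chr16g0091005, 0.33 for Niben261Chr17g0697008, 0.0503 for Niben261Chr19g1427022), and a further 4 lost the threshold.

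Under the other alternatives, 6 values of single named loci changed sign, none of which passed the test in either setting. The 30S 2 locus Niben261Chr03g0548003 had log2FC values of 0.14 after rescaling to equal totals, 0.0806 with quantile scaling and -0.15 to 0.0948 with 1 library left out, above 0 without replicate 2 under 0.5 mg/L NAA. The 30S 3 locus Niben261Chr04g1030002 had 0.0071 after rescaling, and Niben261Chr16g0091005 had -0.65 to 0.0097 with 1 library left out, above 0 without replicate 1 or 2 under 0.1 mg/L NAA. A further 7 lost the threshold, at the 30S 3 loci Niben261Chr17g0697008 and Niben261Chr19g1427022 and, with quantile scaling, at the protein 5 locus Niben261Chr13g0170009, and 3 gained it. The number of reads behind each FPKM value is unknown, so counting error could not be separated from the spread between libraries.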
